A study of Mus musculus with 7 samples.

Results

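The extracellular matrix genes described here are 45 of the 32285 genes counted in 7 single-cell RNA libraries of the mouse heart. They were taken by symbol from a written list and were divided by where their products lie in tissue. The interstitial set holds 24 genes, of which 7 encode fibril-forming collagen chains, 9 other collagen chains and 8 proteoglycans and glycoproteins. The elastic fibre and microfibril set holds 10 genes, and the basement membrane set 11.

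Single cells were prepared from hearts of C57BL6/J mice (WT) and of mice labelled MerTK KO, after sham surgery or after MI, myocardial infarction. The 6 groups were WT P1 sham and WT P1 MI (P1 is postnatal day 1), WT 8 week sham and the matching WT 8 week MI, and a pair of groups labelled Mertk KO, P1 sham and P1 MI. WT P1 MI had 2 libraries and every other group 1, so a value from any other group has no replicate error. Mertk encodes a receptor by which macrophages take up dying cells. Every library was perfused heart tissue digested with collagenase and DNase, cleared of red and dead cells, and recombined at 2 CD45+ (leukocyte) cells to 1 CD45- cell. The share of stromal cells was therefore set by mixing and is not compared. The labels give neither the interval between surgery and collection, nor the number of animals behind a library, nor the extent of the deleted Mertk sequence. They also do not say whether P1 is the age at surgery or at collection, so ages are used as labelled.

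Fibroblasts make most of the interstitial matrix of the heart. Collagens I, III and V form its fibrils, small leucine-rich proteoglycans such as decorin and biglycan coat them, and fibronectin serves as an early scaffold for assembly after injury. Elastic fibres consist of an elastin core on fibrillin microfibrils, joined by fibulins and microfibril-associated proteins. Basement membranes are thin sheets under endothelium and around muscle and mural cells, built from laminin trimers (an alpha, a beta and a gamma chain) and a collagen IV network that nidogens and perlecan connect.

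Promoter sequence was available for 30 of the 45 members in the RefSeq table used (build GRCm38.p6), as the 250 bases before the start of transcription given there. For some members that start was not the GENCODE start, with a distance of 3103 bases for Sparc and 2816 for Lama2. Some windows also held exon bases, all 250 in those of Fbn1 and Col4a1. None of the windows printed below is displaced or holds exon bases. The 4 printed here belong to the most abundant collagen, Col3a1, to the pair that rose in fibroblasts after MI at P1, Fmod and Col11a1, and to Col8a1, which had the widest gap between ages in fibroblast-like cells among the 30 members with a window (Col26a1, with a wider gap between sham libraries, has none). They run 5′ to 3′ on the strand of the gene, and capitals mark 3 short motifs on either strand: the TATA box TATAAA (reverse complement TTTATA), the CCAAT box (reverse complement ATTGG) and the GC box GGGCGG (reverse complement CCGCCC).
Col3a1, chr1:45311288-45311537, plus strand: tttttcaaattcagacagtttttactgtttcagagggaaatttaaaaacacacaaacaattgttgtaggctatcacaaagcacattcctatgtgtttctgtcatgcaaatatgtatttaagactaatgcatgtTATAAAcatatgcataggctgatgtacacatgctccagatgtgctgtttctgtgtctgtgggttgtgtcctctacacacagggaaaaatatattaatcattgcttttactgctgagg
Fmod, chr1:134037004-134037253, plus strand: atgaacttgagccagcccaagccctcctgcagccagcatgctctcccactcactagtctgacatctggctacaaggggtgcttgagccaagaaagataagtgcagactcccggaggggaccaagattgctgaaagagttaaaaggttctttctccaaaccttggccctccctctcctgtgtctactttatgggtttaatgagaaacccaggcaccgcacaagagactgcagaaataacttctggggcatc
Col11a1, chr3:114030290-114030539, plus strand: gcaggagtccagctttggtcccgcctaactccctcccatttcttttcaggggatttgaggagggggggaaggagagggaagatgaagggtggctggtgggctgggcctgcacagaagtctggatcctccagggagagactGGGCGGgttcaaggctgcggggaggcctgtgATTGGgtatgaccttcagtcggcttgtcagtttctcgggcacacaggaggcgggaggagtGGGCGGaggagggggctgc
Col8a1, chr16:57754738-57754987, minus strand: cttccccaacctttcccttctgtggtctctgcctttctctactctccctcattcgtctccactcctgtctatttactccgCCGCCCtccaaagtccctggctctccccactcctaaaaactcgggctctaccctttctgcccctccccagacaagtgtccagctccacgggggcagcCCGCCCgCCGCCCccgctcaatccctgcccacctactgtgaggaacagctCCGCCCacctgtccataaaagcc
The Col3a1 window had a G+C content of 35.2% and 1 TATAAA, 111 bases before the start, and the Col8a1 window 60.8% and 4 GGGCGG, the nearest 17 bases before the start. The Col11a1 window (62.4% G+C) held 1 CCAAT and 2 GGGCGG, and the Fmod window (51.2% G+C) none of the 3 motifs. Among the 30 members with a window, 20 had GGGCGG, against 35.4% of the 27025 genes with a window. CCAAT was found in 12 of the 30, against 37.5% of genes, and TATAAA in 2 of the 30, against 14.3%. The counts over members include the displaced windows and those with exon bases. A match is a run of letters and not a shown site.

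The collagen IV genes Col4a1 and Col4a2 lie head to head on chromosome 8, at chr8:11198423-11312826 on the minus strand and chr8:11312805-11449287 on the plus strand. Their starts are 21 bases apart, and the 22 bases from one to the other are given on the Col4a2 strand because the ratio of these 2 genes is reported further on. These bases lie within both genes. Motifs are not marked by capitals in them, although they hold GGGCGG.
Col4a2 strand, chr8:11312805-11312826: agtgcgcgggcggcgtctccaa
Other members are also neighbours. Col3a1 and Col5a2 are 24614 bases apart on chromosome 1, Dcn and Lum 46984 bases apart on chromosome 10, and Col6a1 and Col6a2 85161 bases apart on chromosome 10.

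The libraries held 44318 barcodes and 367475379 UMIs (unique molecular identifiers, each 1 counted RNA molecule), and 36953 cells passed the filters on depth, mitochondrial share and doublets. Cells were assigned by 10 marker genes per class, none of them a matrix member: at least 3 markers detected, and more than of any other class. This gave 6228 fibroblast-like cells (75 to 2895 per library), 5319 endothelial-like cells (54 to 2368) and 643 mural-like cells (pericytes and smooth muscle, 7 to 456). All 10 markers of the class were detected in fibroblast-like and in endothelial-like cells of every library. The cells were chosen by these same markers, so this does not check the classes. Library pairs shared at most 0.590% of barcodes of the smaller library. The WT 8 week MI library was the shallowest, with 283791 UMIs in 75 fibroblast-like cells and 119542 UMIs in 54 endothelial-like cells. Mertk itself was at 34.9, 28.7, 12.9, 28.5, 28.6, 21.3 and 20.01 CPM in leukocyte-led cells without lymphocyte markers, taking WT at P1 first (sham, then both MI libraries), then WT at 8 weeks and Mertk KO at P1 (each sham before MI). The libraries labelled Mertk KO were within the range of the WT libraries. The counted 3′ ends may lie outside the deleted sequence, which the labels do not give, so this level does not check the genotype and the labels are used as given. The UMIs were summed per class and library and given as CPM (counts scaled to a fixed total of the UMIs of that class). A UMI is counted once per RNA molecule at its 3′ end and does not grow with transcript length, but capture differs between genes, so levels of different genes are ordered only roughly.

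In fibroblast-like cells the 45 genes together supplied a large share of all UMIs. The interstitial set made up 5.38% of UMIs in the WT sham library at P1, 5.60% and 4.73% in the WT P1 MI libraries (5.17% ± 0.615, SD, n = 2), 6.35% without and 6.14% with MI at 8 weeks, and 5.51% without and 4.95% with MI in Mertk KO at P1. The elastic fibre set made up 0.7999%, then 0.840% and 0.735% (0.787% ± 0.0739, SD, n = 2), 1.05%, 0.785%, 0.860% and 0.544% in the same order. The basement membrane set made up 0.728%, then 0.626% and 0.461% (0.543% ± 0.117, SD, n = 2), 0.365%, 0.181%, 0.615% and 0.316% in the same order. The elastic fibre total was lowest in Mertk KO P1 MI and highest in WT 8 week sham, and the basement membrane total was lowest in the 2 libraries of WT 8 week MI and Mertk KO P1 MI.

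Endothelial-like cells carried a different mixture, with about equal shares of interstitial and basement membrane UMIs. Most of their interstitial UMIs were those of 1 glycoprotein gene, Sparc, with a mean of 4803 CPM over the 7 libraries. The highest mean of a fibril-forming collagen chain was 98.2 CPM (Col3a1). Their interstitial set made up 0.578%, then 0.616% and 0.621% (0.619% ± 0.00336, SD, n = 2), 0.434%, 0.681%, 0.703% and 0.643%. Their elastic fibre set made up 0.12504%, then 0.0821% and 0.107% (0.0944% ± 0.0174, SD, n = 2), 0.0497%, 0.0326%, 0.211% and 0.122%. Their basement membrane set made up 0.622%, then 0.721% and 0.509% (0.615% ± 0.150, SD, n = 2), 0.344%, 0.489%, 0.622% and 0.509%. Lymphocyte-like cells were taken as the background class and held 0.00845% to 0.137% for the interstitial set, at most 0.00560% for the elastic fibre set and at most 0.00559% for the basement membrane set. In WT 8 week sham, the library with the highest of these interstitial values, Col1a1 stood at 65.5 CPM in lymphocyte-like and 66.8 CPM in endothelial-like cells, so its endothelial level there was at background. So was that of Col1a2 (80.7 and 82.5 CPM). Fn1 alone stood at 914 CPM in these lymphocyte-like cells, above its 391 CPM in endothelial-like cells, and made up most of their interstitial value. Whether this is free RNA or the cells' own was not tested.

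**Figure D1:**
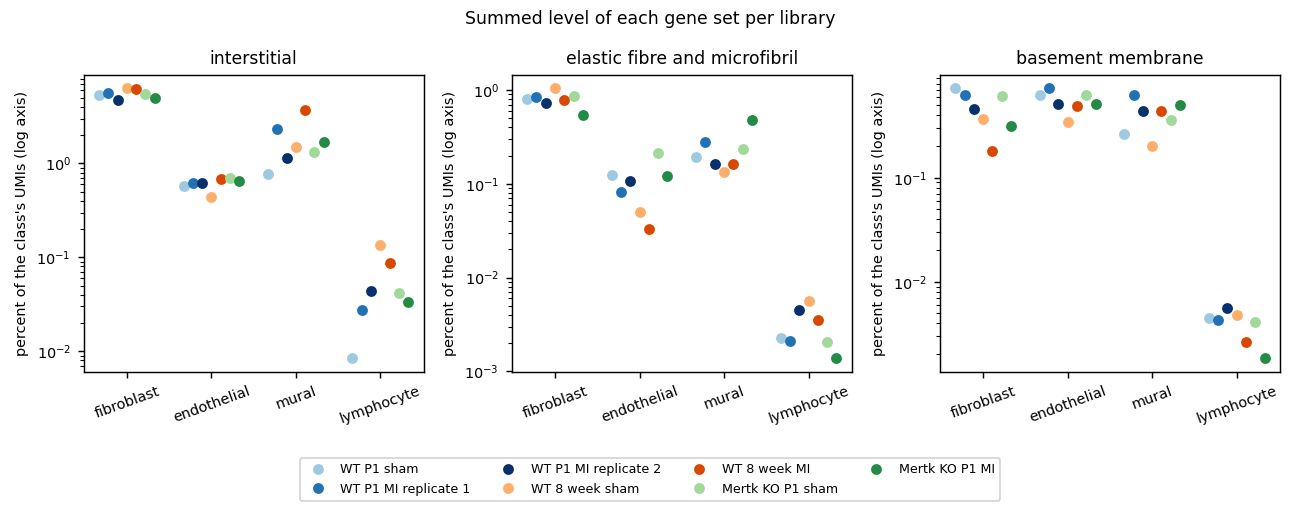
Summed level of the interstitial, elastic fibre and basement membrane sets as a percent of the UMIs of each class (log axis), 1 point per library, coloured by library. Fibroblast-like cells lie between 4.73% and 6.35% for the interstitial set, all above the endothelial-like cells, while the basement membrane points of the 2 classes overlap. Mural points come from at least 30 cells only in WT 8 week sham and WT P1 MI replicate 2.

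Between classes the comparison asked which stromal cell carries which part of the matrix. Fibroblast-like against endothelial-like cells was fitted over all 13835 genes with the library as a block (edgeR quasi-likelihood, 7 libraries, Benjamini-Hochberg adjustment). A gene was called at an adjusted p under 0.05 with at least a 2-fold difference. By this rule 39 members were higher and 4 lower in fibroblast-like cells, against 31.7% of all genes tested (17.5% higher, 14.1% lower). All 24 interstitial members (median log2 fold 5.37) and all 10 elastic fibre members (median 3.21) were higher, and the basement membrane set was divided, against a median of 0.02 over all genes. These counts were the same in every alternative that was run.

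The largest of the class differences belonged to Ogn, which encodes the small proteoglycan osteoglycin (7.54 ± 0.34, log2 ± SE, adjusted p 5.24e-09 by edgeR), to Col1a1 (7.26 ± 0.50) and to Col3a1 (6.89 ± 0.27). The smallest among interstitial genes was that of Sparc, a collagen-binding glycoprotein, at 1.25 ± 0.16. Within the elastic fibre set the microfibril gene Mfap4 (6.75 ± 0.27) and Fbln1 (6.28 ± 0.26) differed most, and Fbln2 (1.69 ± 0.29), Emilin1 (1.74 ± 0.10) and Eln (2.06 ± 0.56) least. Of the basement membrane genes, the laminin chains Lama2 (5.89 ± 0.25), Lamc1 (1.66 ± 0.24) and Lamb1 (1.60 ± 0.22), the collagen Col15a1 (1.52 ± 0.30) and the linker Nid1 (1.34 ± 0.23) were higher in fibroblast-like cells. Col18a1, the endostatin collagen (-3.13 ± 0.36), Col4a2 (-1.43 ± 0.15), Nid2 (-1.40 ± 0.20) and Col4a1 (-1.24 ± 0.17) were lower. The nidogens thus lay on opposite sides, as did the laminin alpha chain of muscle, Lama2, and the collagen IV genes. Lama4, the alpha chain of vessel basement membrane (0.35 ± 0.20), and Hspg2, perlecan (-0.30 ± 0.09), were not called.

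**Figure D2:**
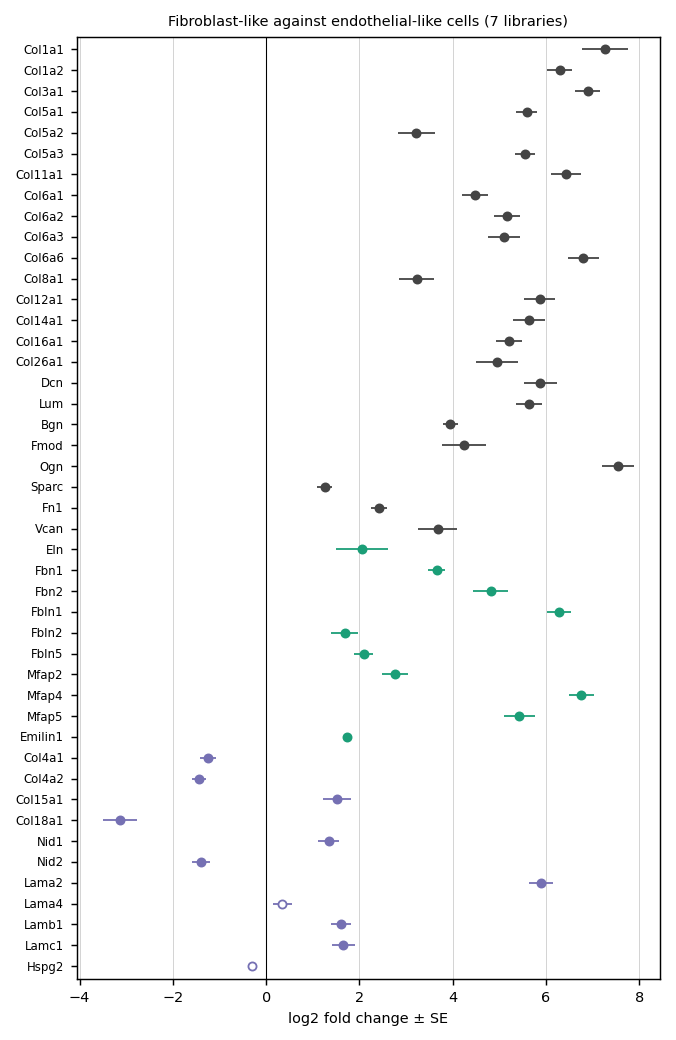
Log2 fold change ± SE of each member between fibroblast-like and endothelial-like cells (7 libraries), with filled points called and open points not called. Grey interstitial and green elastic fibre genes all lie to the right of 0, and purple basement membrane genes lie on both sides, from Lama2 at 5.89 to Col18a1 at -3.13.

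Mural-like cells could be entered from only 2 libraries, WT 8 week sham (105 cells) and WT P1 MI replicate 2 (456 cells). Against them fibroblast-like cells had 36 members higher and none lower, where 15% of all genes were called (7.70% higher, 7.32% lower). Without WT P1 MI replicate 2 the count was 19. By library totals without the TMM scaling, 30 members were higher and 2 lower, and 39.0% of all called genes were higher in fibroblast-like cells instead of 51.3%. The members with the largest differences were Dcn, decorin (4.85 ± 0.59), Fbln2 (4.78 ± 0.62) and Mfap5 (4.496 ± 0.57). Col4a1 (-0.68 ± 0.27) and Col18a1 (-1.75 ± 0.59) were among the 9 not called.

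Mural-like cells had 22 members higher and 4 lower than endothelial-like cells, against 22.5% of all genes (12.4% higher, 10.1% lower). The higher members were led by Col12a1 (4.44 ± 0.52), Col5a3 (4.25 ± 0.31) and Ogn (4.05 ± 0.43), with Lama2 (4.01 ± 0.35) the 1 basement membrane gene among them, and the lower ones were Fbln2 (-3.09 ± 0.59), Hspg2 (-2.43 ± 0.17), Nid2 (-2.23 ± 0.42) and Lama4 (-1.42 ± 0.37). Without WT P1 MI replicate 2, 18 were higher and 2 lower. The highest mural levels, in WT P1 MI replicate 2 and then WT 8 week sham, were those of Sparc (5141 and 5241 CPM), Col4a1 (2214 and 762), Col3a1 (1169.8 and 2362) and Col1a2 (911 and 1978). Cardiomyocyte markers stood at 2876 CPM in mural-like cells of WT P1 MI replicate 2 and at 239.9 CPM in WT 8 week sham, and their part in these counts was not tested. The other mural classes held 7 to 25 cells and were not compared.

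In fibroblast-like cells the levels of single members are given in a fixed order: the WT sham library at P1, both WT P1 MI libraries (replicate 1 first), WT at 8 weeks without and then with MI, and Mertk KO at P1 without and then with MI. Among fibril-forming chains, Col3a1 (collagen III) was at 10775, 11642, 9152, 11087, 12213, 9656 and 9665 CPM. Col1a2 was at 5256, 6214, 5235, 7998, 7636, 6364 and 6739.9 CPM and Col1a1, its partner in collagen I, at 5456, 6449, 5265, 6531, 7386, 5452 and 5503 CPM. Each of these 3 had a highest library at most 1.53-fold above its lowest. Col5a2, a chain of the collagen V that starts fibrils, was at 747, 871, 679, 829, 1321, 802 and 661 CPM, with its highest value in WT 8 week MI.

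Among the other collagens, the beaded-filament chains Col6a1 and Col6a2 were at 1074, 1014, 794, 675, 599, 1019 and 455 CPM and at 999.6, 997, 744, 548, 553, 1150.0 and 417 CPM, both lowest in Mertk KO P1 MI. Col14a1, a fibril-associated collagen, was at 854, 825, 802, 584, 437, 799 and 472 CPM, and Col6a3 at 617, 553, 395, 335, 342, 459.5 and 169 CPM. These 4 differed by 1.95-fold to 3.64-fold between the lowest and highest library.

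Among proteoglycans and glycoproteins, Sparc was at 8256, 8461, 7968, 11945, 12298, 11592 and 11345 CPM, higher in both 8 week and both Mertk KO libraries than in the 3 WT P1 libraries. Dcn was at 12072, 10935, 9023, 13689, 5042, 9619.5 and 6307 CPM, and Bgn, biglycan, at 1359.9, 1438, 1733, 3011, 4782, 2177 and 2677 CPM. The ratio of Dcn to Bgn ran from 8.88 in WT P1 sham through 7.61 and 5.21 with MI to 4.55 in WT 8 week sham and 1.05 in WT 8 week MI, and was 4.42 and 2.36 in Mertk KO P1 sham and MI. Fn1, fibronectin, was at 1255, 1649.5, 1295, 1358, 3481, 1528 and 2091 CPM, with its highest value in WT 8 week MI.

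Among elastic fibre genes, Mfap5 (a microfibril-associated glycoprotein) was at 2841, 2415, 2063, 2064, 2738, 2182 and 1229 CPM. Eln, elastin, was at 1024, 1467, 1061, 2848, 606, 1634 and 622 CPM and Mfap4 at 934, 944, 1074, 1694, 1744, 983 and 753 CPM. Fbn1, the main fibrillin, was at 1385, 1396, 1013, 879, 744, 1344 and 813 CPM. Elastin and fibrillin did not run in parallel: the ratio of Eln to Fbn1 was 3.24 in WT 8 week sham and between 0.739 and 1.22 in the other 6 libraries.

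Among basement membrane genes, Col4a1 was at 1147, 972, 1042, 529, 243, 1108 and 654 CPM and Nid1 at 968, 845, 521, 757, 292, 623 and 275 CPM. Col15a1, a collagen that joins basement membranes to the fibrils beyond, was at 990.4, 791, 511, 428, 363, 783 and 252 CPM. Lamb1, the common laminin beta chain, was at 875, 765, 512, 309, 77.5, 774 and 418 CPM. All 4 had their highest value at P1, in a WT library, and Col4a1 and Lamb1 their lowest in WT 8 week MI.

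**Figure D3:**
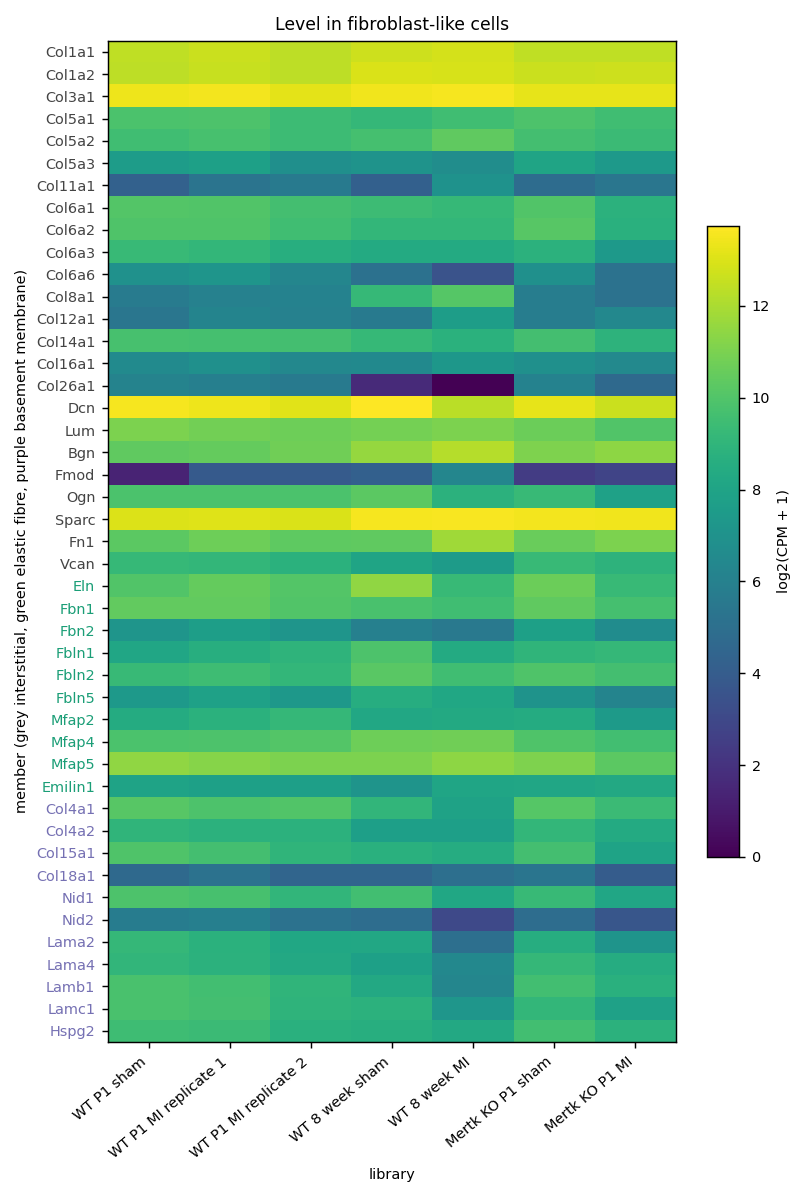
Level of each of the 45 members in fibroblast-like cells, as log2(CPM + 1), by library, with the gene names coloured by set. Col3a1, Dcn and Sparc are the brightest rows, Col8a1 is bright only in the 2 WT 8 week libraries, and the laminin rows are darkest in WT 8 week MI.

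The first condition comparison asked what MI at P1 did to fibroblast matrix genes in WT hearts. Of the 45 members, 2 rose and none fell, against 1.26% of the 13597 genes tested (1.10% higher, 0.162% lower) (edgeR quasi-likelihood, 7 libraries in 6 groups and 1 fit). The spread in this fit rests on the 2 WT P1 MI libraries, which the labels do not say came from separate animals. It was pooled over genes (infinite prior degrees of freedom) and is not each gene's own. The p-values thus measure a change against the pooled difference between those libraries, which may be technical. Fmod, fibromodulin, which steers collagen fibril assembly, was at 1.55 CPM in WT P1 sham and at 13.7 and 14.6 CPM with MI, a log2 fold change of 3.23 ± 0.52 (SE, adjusted p 2.10e-07 by edgeR). Col11a1, a minor fibril-forming chain, was at 18.1 CPM and at 38.6 and 48.4 CPM, a log2 fold change of 1.32 ± 0.36 (adjusted p 0.0207). Both MI libraries were above the sham library for each gene. The Col11a1 call was lost with DESeq2, with library totals and without doublet removal, where its adjusted p ran from 0.0630 to 1.00, while Fmod stayed called in each alternative.

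The abundant chains were not called after MI at P1. Their fitted log2 changes were 0.13 ± 0.69 for Col1a1, -0.02 ± 0.74 for Col3a1, 0.26 ± 0.59 for Fn1 and 0.26 ± 0.62 for Bgn. The 11 basement membrane genes had a median log2 change of -0.42 with none called and the 10 elastic fibre genes of 0.17 with none called, while the median of the 24 interstitial genes was -0.0016 and that of all genes 0.0025. Simulated counts for this comparison, with the same spread for every gene, recovered 80.6% of genes with a log2 change of 2 and 97.9% of those with a log2 change of 3. These shares do not say how often a change of the abundant chains, with SEs of 0.59 to 0.74, would be found. None of the 5 lists of related genes (collagen folding and cross-linking, elastic fibre partners, other basement membrane genes, matrix proteases and inhibitors, matrix receptors) had a called gene here.

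The comparison of WT P1 MI with WT 8 week MI had the most called members, 10 higher and 4 lower at P1, against 11.3% of all genes (6.47% higher, 4.82% lower). It divided by set. Of the 11 basement membrane genes, 6 were higher at P1 and none lower (median log2 fold 2.23). Of the 10 elastic fibre genes 1 was higher (median 0.24), and of the 24 interstitial genes 3 were higher and 4 lower (median -0.08, unchanged with Col26a1 at its bound). The median over all genes was 0.38 with TMM scaling and 0.20 by library totals, and 57.3% of called genes were higher at P1 with the first and 45.5% with the second. The WT 8 week MI side is 1 library of 75 cells, in which leukocyte markers stood at 391 CPM, against 12.5 and 47.6 CPM in the P1 MI libraries, and the 5 myofibroblast markers at 7766 CPM, against 4226 and 4301 CPM. The 10 fibroblast markers summed to 2858 CPM there and to 4282 and 3474 CPM in the P1 libraries, and the part of these values in the result was not tested.

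The laminin chains led the basement membrane genes. Lama2 was at 443 and 289.5 CPM at P1 and at 31.7 CPM at 8 weeks (3.69 ± 0.68, adjusted p 4.24e-06 by edgeR). Lamb1 was at 765 and 512 against 77.5 CPM (3.20 ± 0.65), Lama4 at 449 and 316 against 84.6 CPM (2.34 ± 0.59) and Lamc1, the common gamma chain, at 783 and 483 against 148 CPM (2.25 ± 0.59). Nid2 was at 60.0 and 35.5 against 7.05 CPM (2.90 ± 0.79), a call that DESeq2 did not make. Its 8 week level was below the floor of 3 counts in that library (10.6 CPM). Col4a1 was at 972 and 1042 against 243 CPM (2.23 ± 0.61). The difference was larger than the gap between the P1 libraries for each of these 6 genes. Of the other 5, Col4a2, Col15a1, Nid1 and Hspg2 had fitted values of 1.27 ± 0.53, 1.00 ± 0.54, 1.38 ± 0.56 and 0.93 ± 0.54 and Col18a1 of -0.02 ± 0.56, none called.

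The interstitial genes went both ways. Col8a1, a short-chain network collagen, was at 65.6 and 67.4 CPM in the P1 MI libraries and at 1110.0 CPM in WT 8 week MI (-3.88 ± 0.43, adjusted p 1.91e-16 by edgeR). It was also high without injury at 8 weeks, as described further on. Fmod was at 13.7 and 14.6 against 77.5 CPM (-2.26 ± 0.46). Col12a1, a fibril-associated collagen, was at 73.0 and 64.7 against 201 CPM (-1.37 ± 0.39) and Col11a1 at 38.6 and 48.4 against 127 CPM (-1.35 ± 0.40, adjusted p 0.0668 with DESeq2). These 4 were lower at P1. Higher at P1 were Col6a6, an alternative collagen VI chain, at 144 and 77.4 against 10.6 CPM (3.53 ± 0.72), Vcan, the large proteoglycan versican, at 544 and 433 against 187 CPM (1.55 ± 0.55), and Col26a1. Col26a1 had 60.8 and 48.4 CPM at P1 and no UMI in WT 8 week MI, at least 5.16-fold higher against a floor of 3 counts in that library. Col6a6 stood at that floor in WT 8 week MI. The Vcan call was lost with no filter on low counts, with a lead of 2 markers in the gate and without doublet removal (adjusted p 0.0617 to 0.111 by edgeR). Fbn2, the fibrillin of developing tissue, was the elastic fibre gene higher at P1, at 205 and 140.5 against 45.8 CPM (2.08 ± 0.56).

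**Figure D4:**
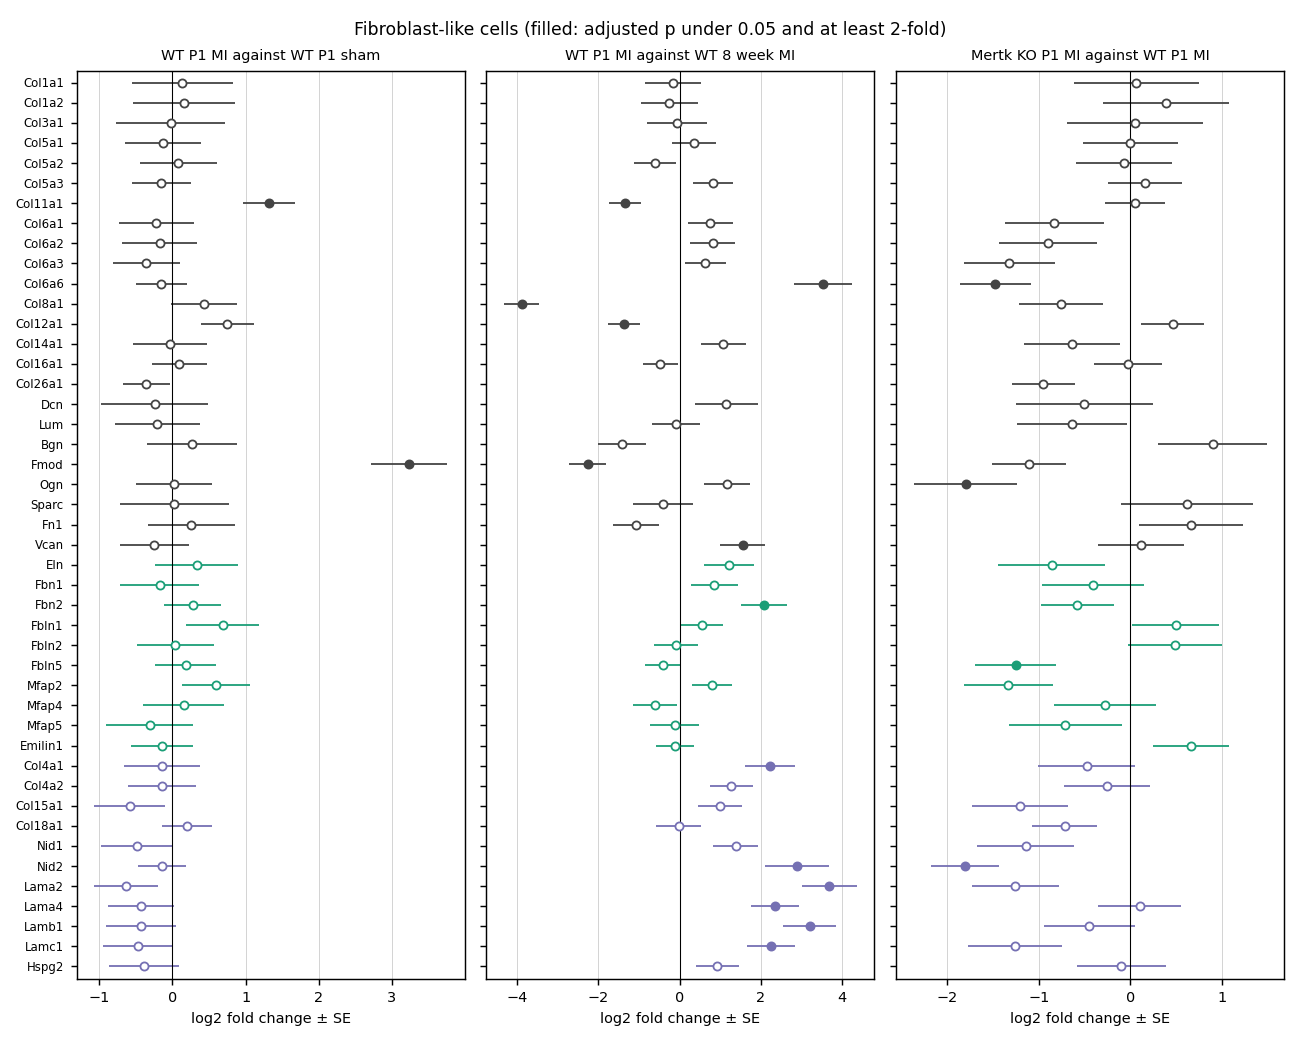
Log2 fold change ± SE of each member in fibroblast-like cells for WT P1 MI against WT P1 sham, WT P1 MI against WT 8 week MI, and Mertk KO against WT with MI at P1, with filled points called. Col26a1 is not drawn in the middle panel because it had no UMI in WT 8 week MI. In the middle panel the purple basement membrane genes lie mostly to the right of 0 and Col8a1 lies at -3.88, while the left panel has only Fmod and Col11a1 filled.

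Whether the effect of MI differed between ages was tested as an interaction, MI against sham at P1 minus MI against sham at 8 weeks. Lama2 was the 1 member called (2.91 ± 0.86, adjusted p 0.0289 by edgeR), against 3.18% of all genes (2.43% higher, 0.743% lower). Lama2 was at 574 CPM in WT P1 sham and 443 and 289.5 CPM with MI, and at 306 CPM in WT 8 week sham and 31.7 CPM with MI. The call was lost with no filter on low counts and without doublet removal (adjusted p 0.0591 to 0.116 by edgeR). The 11 basement membrane genes had a median of 1.22, against 0.44 over all genes with TMM scaling and 0.13 by library totals. With those 2 scalings 76.6% and 57.2% of called genes were positive.

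At 8 weeks, MI and sham had 1 library each, so ratios are given with no test and no error. Counted as past the fold are members at least 2-fold apart with at least 50 CPM in the higher library and 20 UMIs in all. Of the 41 members with enough UMIs, 4 were past it with MI higher and 10 with MI lower, where 34.1% of all measured genes were past it (18.4% higher, 15.7% lower). The basement membrane genes had 6 of 9 measured members lower (median log2 ratio -1.35, all genes 0.21). Lama2 (-3.19), Lamb1 (-1.96) and Lamc1 (-1.58) had the lowest ratios, and Nid1 (-1.36), Lama4 (-1.35) and Col4a1 (-1.11) followed. Of the elastic fibre genes, Eln stood at 2848 CPM in sham and 606 CPM in MI (-2.23) and Fbln1 at 949.7 and 342 CPM (-1.47). Of the interstitial genes, Ogn (1239 and 455 CPM, -1.44) and Dcn (-1.44) were lower. Col11a1 (17.5 and 127 CPM, 2.88), Fmod (17.3 and 77.5 CPM, 2.19), Col12a1 (47.4 and 201 CPM, 2.09) and Fn1 (1.36) were higher with MI. Fmod and Col11a1 are the genes that rose with MI at P1 as well. The fold was measured with leukocyte markers at 133 CPM in sham and 391 CPM in MI.

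Between ages without injury, WT P1 sham was set against WT 8 week sham, again with 1 library each. The file headers name the counting program Cell Ranger 6.1.0 for WT 8 week sham and 4.0.0 for WT P1 sham and WT 8 week MI. This version difference runs with each pair that holds WT 8 week sham, in either class, and its part was not tested. Of 41 measured members, 9 were past the fold with P1 higher and 5 with 8 weeks higher, against 17.1% of all measured genes (10.6% higher, 6.49% lower). The basement membrane set had 5 of 10 measured members higher at P1 and none lower (median log2 ratio 1.05, all genes 0.16): Lamb1 (1.503), Col4a2 (1.25), Lama4 (1.24), Col15a1 (1.21) and Col4a1 (1.12). The interstitial genes higher at P1 were Col26a1 (71.0 against 2.08 CPM, 5.08), Col6a6 (1.84) and Vcan (1.17), and of the elastic fibre genes Fbn2 (1.24). Higher at 8 weeks were Col8a1 (50.6 against 598 CPM, -3.56), Fbln1 (-1.74), Eln (-1.48), Bgn (-1.15) and Fbln5 (-1.10), the last a fibulin required for elastic fibre assembly. Col8a1 was at 35.5 to 67.4 CPM in all 5 P1 libraries and at 598 and 1110.0 CPM in the 2 libraries of 8 weeks. Averaging the cells' own CPM instead of summing their UMIs gave 8 higher and 2 lower, of which 8 in all were among the 14 members above. Not past the fold by this measure were Lama4 (0.95), Col4a1 (0.84) and Col15a1 (0.80), with Eln at -0.66, Bgn at -0.98 and Fbln5 at -0.93.

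**Figure D5:**
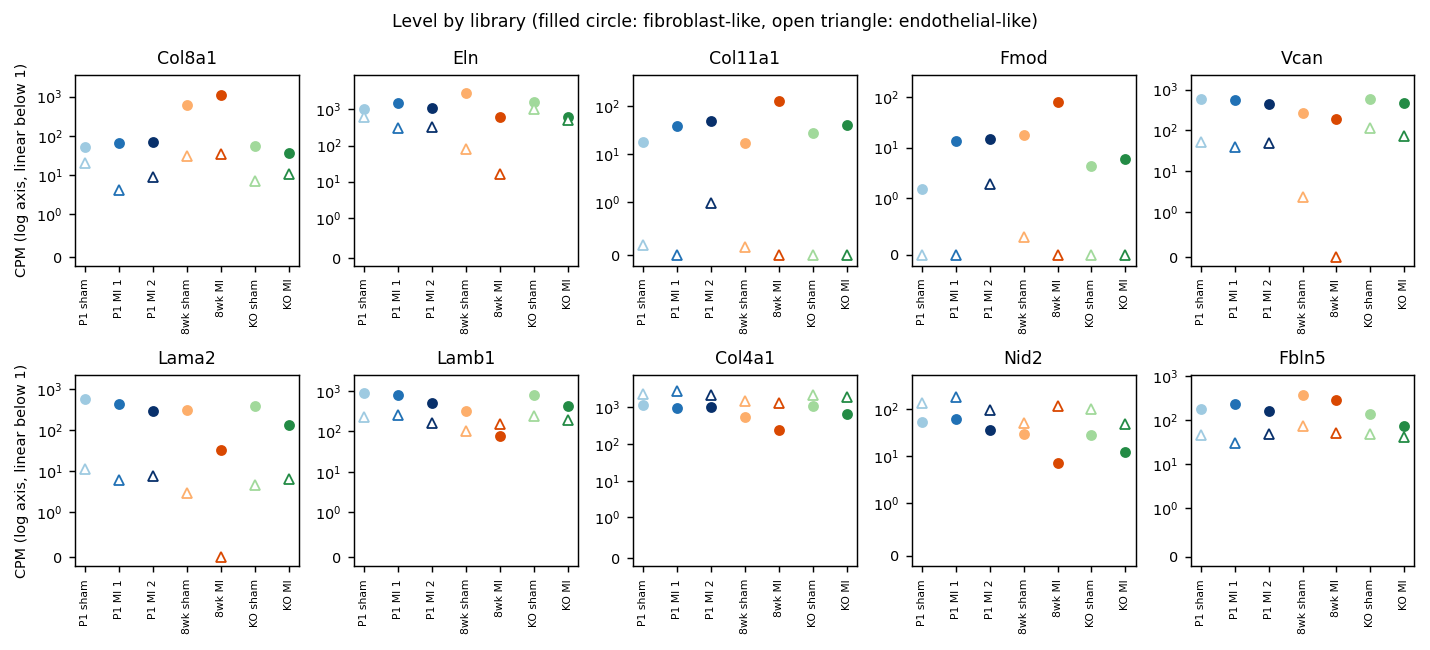
CPM of 10 members by library in fibroblast-like cells (filled circles) and endothelial-like cells (open triangles), on a log axis that is linear below 1. Fibroblast Col8a1 is above 500 CPM only in the 2 libraries of 8 weeks, fibroblast Lama2 is lowest in WT 8 week MI, and Col4a1 and Nid2 are higher in endothelial-like cells in every library.

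The genotype comparison compared Mertk KO P1 MI with WT P1 MI. In fibroblast-like cells 4 members were lower in the library labelled Mertk KO and none higher, against 9.61% of all genes (5.04% higher, 4.57% lower). Ogn was at 914 and 908 CPM in WT P1 MI and 236 CPM in Mertk KO P1 MI (-1.80 ± 0.56, adjusted p 0.0202 by edgeR). Nid2 was at 60.0 and 35.5 against 12.0 CPM (-1.81 ± 0.37, adjusted p 5.18e-05 by edgeR), Col6a6 at 144 and 77.4 against 35.2 CPM (-1.48 ± 0.39) and Fbln5 at 232 and 159.9 against 73.2 CPM (-1.26 ± 0.44, adjusted p 0.0478 by edgeR). The library labelled Mertk KO was below both WT libraries for each gene. The basement membrane set had a median log2 fold of -0.72 and the elastic fibre set of -0.49, against -0.04 over all genes and -0.19 by library totals. By library totals 11 members were lower, and the calls over all genes moved the same way. Of all called genes 38.5% were then higher in that library instead of 52.4%.

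The 4 calls varied with the tool. DESeq2 called 3 members, of which 1 is among these 4. The fitted fold of Fbln5 was not called with DESeq2, with no filter, with a lead of 2 markers or without doublet removal (adjusted p 0.0547 to 0.113). The abundant collagens differed little, with 0.07 ± 0.69 for Col1a1 and 0.05 ± 0.74 for Col3a1, and Bgn at 0.90 ± 0.59, none called. In Mertk KO P1 MI leukocyte markers stood at 127 CPM in fibroblast-like cells, against 12.5 and 47.6 CPM in WT P1 MI, and the 10 fibroblast markers at 2508 CPM, against 4282 and 3474 CPM. Their part in the result was not tested.

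Without injury, Mertk KO P1 sham against WT P1 sham had 0 of 42 measured members past the fold in fibroblast-like cells, where 3.52% of all measured genes were past it. This is 1 library a side and has no test. With MI against sham within the 2 libraries labelled Mertk KO, 12 of 41 measured members were past the fold, all lower with MI, against 10.6% of measured genes (3.24% higher, 7.32% lower). The lowest were Col6a6 (-1.74), Col15a1 (783 and 252 CPM, -1.63) and Lama2 (383 and 137 CPM, -1.49). Col6a2, Col6a3 and Col6a1 followed at -1.46, -1.44 and -1.16, and Eln at -1.39, Col26a1 at -1.39, Ogn at -1.37, Lamc1 at -1.21, Nid1 at -1.18 and Fbn2 at -1.09. When the cells' own CPM were averaged, 3 members were past the fold. The difference between genotypes in the effect of MI was called for 1 member, Fmod (-2.53 ± 0.72, adjusted p 0.0482 by edgeR), against 0.927% of all genes (0.279% higher, 0.647% lower). Fmod was at 4.36 and 5.99 CPM in Mertk KO P1 sham and MI, against 1.55 CPM and then 13.7 and 14.6 CPM in WT. The call was lost with DESeq2, with no filter, without doublet removal and with library totals that leave out the members (adjusted p 0.0508 to 1.00).

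Genes that process, degrade or bind the matrix were counted from lists of 27 collagen folding and cross-linking genes, 11 elastic fibre partners, 18 other basement membrane genes, 19 proteases and inhibitors and 19 matrix receptors. In fibroblast-like cells of Mertk KO P1 MI compared with WT P1 MI, 4 of the 19 proteases and inhibitors were higher and none lower, where 9.61% of all genes were called (5.04% higher, 4.57% lower). Timp1, an inhibitor of matrix metalloproteinases, was at 70.9 and 329 CPM in WT P1 MI and 6431 CPM in Mertk KO P1 MI (5.10 ± 0.59), and Mmp3, stromelysin 1, at 1.45 and 1.00 against 50.4 CPM (5.63 ± 0.39). Mmp9 (3.46 ± 0.74) was the third by size. Leukocyte markers were higher in these cells of Mertk KO P1 MI than in both WT P1 MI libraries, as given above. Their part in these calls was not tested. Timp1 was also the protease-list gene past the fold between sham libraries, at 45.9 CPM in WT P1 sham and 429.7 CPM in Mertk KO P1 sham. Of 26 tested folding genes 3 were higher, Lox, which cross-links collagen and elastin (1.80 ± 0.43), and the prolyl hydroxylase subunits P4ha2 (1.45 ± 0.35) and P4ha3 (1.30 ± 0.31), and P3h2 was lower (-1.54 ± 0.45). Of 18 tested receptors Itga7 (-2.23 ± 0.61) and Itga8 (-2.10 ± 0.40) were lower, of 14 other basement membrane genes Col4a5 (-1.40 ± 0.37), and of 11 elastic fibre partners none was called.

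Between WT P1 MI and WT 8 week MI the same lists had called genes in both directions, where 11.3% of all genes were called (6.47% higher, 4.82% lower). Of 26 tested folding and cross-linking genes 1 was higher, and Loxl3 (-2.67 ± 0.37), Lox (-2.36 ± 0.44) and Serpinh1, the collagen chaperone (1354 and 1297 against 5772 CPM, -1.95 ± 0.57), were lower at P1. Of 11 elastic fibre partners Ltbp2 was lower (-2.29 ± 0.38) and Ltbp4 higher (2.08 ± 0.59). Of 19 proteases and inhibitors 3 were higher, led by Adamts4 (3.59 ± 0.72), and 3 lower, led by Mmp3 (-3.79 ± 0.93) and Timp1 (-3.29 ± 0.56). The part of the leukocyte markers, higher in WT 8 week MI as given above, was not tested here either. Of 14 other basement membrane genes Sparcl1 (2.79 ± 0.62) and Smoc2 (2.49 ± 0.60) were higher and Tinagl1 lower (-4.22 ± 1.12), and of 18 receptors 2 were higher and Itga11 lower (-3.30 ± 0.69).

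In endothelial-like cells the levels follow the same order of libraries. Among basement membrane genes, Col4a1 was at 2355, 2722, 2126, 1457, 1297, 2197 and 1921 CPM and Col4a2 at 1256, 1492, 1043, 713, 1246, 1199 and 1079 CPM. Hspg2 was at 863, 974, 568, 518, 519, 930.4 and 669 CPM and Lama4 at 356, 428, 244, 177, 284, 431 and 265 CPM. Each had its lowest value in one of the 2 libraries of 8 weeks.

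Among endothelial interstitial genes, Sparc was at 4743, 5323, 4893, 3133, 5579.6, 5248 and 4705 CPM and Fn1 at 222, 236, 258, 391, 786, 473 and 342 CPM. Fn1 reached 914 CPM in lymphocyte-like cells of WT 8 week sham, above every endothelial value. Dcn was at 136, 161, 186, 241, 8.37, 200.5 and 431 CPM and Bgn at 105, 73.4, 148, 143, 259, 235 and 263 CPM. Of the fibril-forming chains, Col5a2 was at 124, 99.1, 117, 24.1, 8.37, 169.9 and 122 CPM, Col3a1 at 89.9, 45.8, 136, 131, 50.2, 106 and 128 CPM, Col1a2 at 78.6, 59.9, 122, 82.5, 33.5, 148 and 88.7 CPM and Col1a1 at 29.6, 3.99, 79.7, 66.8, 8.37, 61.5 and 61.4 CPM. Of the other collagens, Col6a1 was at 55.7, 37.0, 46.1, 13.1, 8.37, 73.2 and 45.5 CPM, Col6a2 at 30.5, 19.2, 30.8, 6.72, 8.37, 42.8 and 30.0 CPM, Col8a1 at 19.7, 3.99, 8.60, 30.2, 33.5, 6.77 and 10.5 CPM and Col14a1 at 20.7, 6.54, 22.5, 4.69, 0, 31.2 and 21.4 CPM. None of the latter passed 100 CPM in a library.

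Among endothelial elastic fibre genes, Eln was at 609, 311, 325, 81.6, 16.7, 1024 and 506 CPM, Fbln2 at 285, 217, 326, 157, 109, 543 and 276 CPM, Fbn1 at 112, 97.0, 112, 51.9, 25.1, 156 and 116 CPM and Emilin1 at 67.2, 81.7, 68.8, 52.1, 75.3, 105 and 94.2 CPM. Endothelial Eln was highest in Mertk KO P1 sham and lowest in the 2 libraries of 8 weeks. In fibroblast-like cells Eln was also lowest in WT 8 week MI, but highest in WT 8 week sham.

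Injury, age and genotype were then compared in endothelial-like cells for the 41 members that passed the filter on low counts (not Col6a6, Col11a1, Col12a1 and Fmod). With MI at P1, 1 member was called, Col8a1, lower (19.7 CPM in sham, 3.99 and 8.60 CPM with MI, -1.44 ± 0.39, adjusted p 0.0456 by edgeR), against 0.473% of the 12680 genes tested (0.355% higher, 0.118% lower). It was not called in 5 of the alternatives and its level was low throughout. Simulated counts for this endothelial comparison, again with the same spread for every gene, recovered 80.6% of genes with a log2 change of 2 and 94.9% of those with a log2 change of 3.

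WT P1 MI against WT 8 week MI had 5 endothelial members higher at P1 and none lower, against 4.31% of all genes (2.71% higher, 1.60% lower). Eln was at 311 and 325 CPM at P1 and 16.7 CPM at 8 weeks (4.60 ± 0.88, adjusted p 3.09e-05 by edgeR). That 8 week level was below the floor of 3 counts in that library (25.1 CPM), and the 8 week level of Fbn1 stood at the floor. Dcn (4.73 ± 1.01) and Col5a2 (4.05 ± 1.00) had 1 UMI each in the 8 week library. Fbn1 (2.42 ± 0.78) was not called in 7 alternatives (adjusted p 0.0672 to 0.1297), and Vcan, at 39.6 and 49.1 CPM at P1 and no UMI at 8 weeks, was at least 1.77-fold higher against the floor of 3 counts. DESeq2 called 3 members higher and 1 lower, of which 2 are among these 5, and did not call Col5a2 (adjusted p 0.0950) or Vcan (0.1303). Without doublet removal Vcan was not called either (adjusted p 0.0575 by edgeR). None of the 11 basement membrane genes was called. The median over all genes was 0.60 with TMM scaling and 0.25 by library totals, with 62.9% and 37.8% of called genes higher at P1. By library totals 4 members were higher and 1 lower. The interaction of MI with age called Dcn (5.51 ± 1.14) and Col1a1 (3.94 ± 1.11), against 1.32% of all genes (0.868% higher, 0.450% lower). Each had 1 UMI in WT 8 week MI, and without WT P1 MI replicate 2 the Col1a1 value was 0.36. Its level was near or below that of lymphocyte-like cells in both WT 8 week libraries (65.5 CPM in sham and 23.8 CPM with MI). For Dcn the part of free RNA from fibroblasts in the endothelial level was not tested. The median of this interaction over all genes was 0.63 with TMM scaling and 0.33 by library totals, with 65.9% and 51.2% of called genes and 2 of 2 and 1 of 2 called members positive. Erythroid markers stood at 9469 CPM in endothelial-like cells of WT 8 week MI, against 7.59 to 283 CPM elsewhere, and their part was not tested.

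Within the adult heart, the endothelial ratios of 1 library with MI to 1 without had 6 members past the fold with MI higher and 5 with MI lower, of 22 measured, against 40.1% of measured genes (23.1% higher, 17.0% lower). Col18a1 (43.6 and 293 CPM, 2.76), Col15a1 (1.92), Nid2 (1.23), Lamc1 (1.18), Nid1 (1.06) and Fn1 (1.02) were higher. The Fn1 ratio starts from a sham level below that of lymphocyte-like cells and is not read as an endothelial difference. The basement membrane genes thus had 5 of 10 measured members higher with MI in endothelial-like cells (median 0.94, all genes 0.30), where fibroblast-like cells had 6 of 9 lower. Dcn (-4.27), Col1a1 (-2.41), Eln (-1.97), Col3a1 (-1.27) and Col1a2 (-1.13) were lower, and Col1a2 turned to 0.28 with a lead of 2 markers in the gate. In the MI library Dcn (8.37 CPM) and Eln (16.7 CPM) stood below the floor of 3 counts (25.1 CPM). The sham levels of Col1a1 and Col1a2 were at background and Col3a1 stood at 95.6 and 47.5 CPM in lymphocyte-like cells of sham and MI, so these 3 ratios are not read as endothelial differences either. Dcn was at 13689 CPM in fibroblast-like cells of WT 8 week sham, and the part of free RNA in its endothelial ratio was not tested.

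Between the WT sham libraries, 11 endothelial members were past the fold with P1 higher and 1 with 8 weeks higher, of 27 measured, against 14.1% of measured genes (6.54% higher, 7.57% lower). Vcan (51.0 and 2.34 CPM, 4.40), Eln (2.90) and Col18a1 (264 and 43.6 CPM, 2.60) had the highest ratios, with Col5a2 (2.36), Col6a1 (2.08) and Mfap2 (1.502) next. The basement membrane set had 5 of 10 measured members higher at P1 (median 1.00, all genes 0.03): Col18a1, Nid2 (1.40), Lamb1 (1.11), Col15a1 (1.07) and Lama4 (1.01). Fbn1 (1.11) was higher as well, and Col1a1 (-1.17) was lower, against an 8 week level that was at background. The mural markers, which the gate allowed in smaller number, summed to 641 CPM in endothelial-like cells of WT P1 sham and 102 CPM in WT 8 week sham, and the fibroblast markers to 129 and 97.4 CPM. Their part was not tested.

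For genotype, endothelial-like cells of Mertk KO P1 MI compared with WT P1 MI had Dcn (161 and 186 against 431 CPM, 1.33 ± 0.40) and Bgn (73.4 and 148 against 263 CPM, 1.24 ± 0.39) higher and Nid2 (179.7 and 95.8 against 49.1 CPM, -1.44 ± 0.42) lower, against 4.21% of all genes (2.97% higher, 1.25% lower). DESeq2 and the fit without doublet removal called none of the members, and with a lead of 2 markers in the gate none was higher and 3 were lower. Nid2 was lower in fibroblast-like cells of the same library too, and it was below both WT libraries in each class. Leukocyte markers stood at 861 CPM in endothelial-like cells of Mertk KO P1 MI, against 69.0 and 63.2 CPM in WT P1 MI. No member was called in the interaction of MI with genotype by edgeR, against 0.820% of all genes, and none was called by DESeq2.

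Between endothelial sham libraries the one labelled Mertk KO had Vcan (1.20), Bgn (1.16), Fn1 (1.09) and Col1a1 (1.05) higher past the fold, of 26 measured, against 3.72% of measured genes (2.22% higher, 1.5% lower), and Col1a1 turned to -0.52 when the cells' own CPM were averaged. Lymphatic endothelial markers stood at 1935 CPM there and at 58.3 CPM in WT P1 sham. Without cells carrying 2 or more lymphatic markers, an alternative chosen after seeing the data, the Fn1 ratio was 0.64. In WT P1 sham this kept 248 of 272 cells but 4043623 of 5369686 UMIs. It left out deep cells, so the part of lymphatic cells in the Fn1 ratio cannot be told apart from that of depth. Fn1 also stood at 307 CPM in lymphocyte-like cells of Mertk KO P1 sham and at 4.94 CPM in those of WT P1 sham. MI against sham within Mertk KO had Dcn (1.10) higher and Eln (-1.02) lower past the fold, of 27 measured, against 5.22% of measured genes (2.5% higher, 2.72% lower).

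Partner chains of 1 protein, and a pair of alternative laminin alpha chains, were compared by ratio within each class, in the library order used above. The ratio of Col4a1 to Col4a2 was 2.24, 2.16, 2.30, 2.45, 1.15, 2.05 and 1.92 in fibroblast-like cells and 1.88, 1.82, 2.04, 2.04, 1.04, 1.83 and 1.78 in endothelial-like cells. It was near 2 in 6 libraries of both classes and near 1 in WT 8 week MI in both. Col1a1 to Col1a2 stayed between 0.816 and 1.04 in fibroblast-like cells. Lamb1 to Lamc1 was 0.983, 0.977, 1.06, 0.690, 0.524, 1.43 and 1.78 in fibroblast-like cells and 1.03, 1.05, 0.938, 0.925, 0.6, 1.55 and 1.79 in endothelial-like cells, highest in both classes in the 2 Mertk KO libraries and lowest in WT 8 week MI. The ratio of the alternative alpha chains Lama2 and Lama4 in fibroblast-like cells was 1.10, 0.986, 0.915, 1.39, 0.375, 0.668 and 0.372. These ratios have no test. They come from the same libraries in both classes, so a property of a library enters both.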

How the data were processed

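Expression was measured by 10x 3′ single-cell RNA-seq in 7 libraries. The deposited values are UMI counts per gene and cell barcode, made by the authors with Cell Ranger (version 4.0.0 or 6.1.0 per the file headers, the later one for WT 8 week sham and for WT P1 MI replicate 2) on GRCm38/mm10 per the labels. The members and lists were chosen with earlier results of these data known. Barcodes under 500 UMIs or 300 genes, or over 15% mitochondrial, were dropped, and the highest Scrublet scores per library (scanpy 1.11.5, 0.8% per 1000 cells) were removed as doublets. Of the gated cells, 2.22% (fibroblast-like) and 4.49% (endothelial-like) had just 3 markers. Counts summed per class and library went into edgeR 4.0.16 under R 4.3.3 (quasi-likelihood, TMM scaling, filterByExpr, Benjamini-Hochberg), with the spread of 7 libraries in 6 groups resting on 1 residual degree of freedom. SE is the log2 fold over the root of F. DESeq2 1.42.0 was an alternative, and the method was tested on simulated data. Pairs of single libraries have ratios with 0.5 counts added. Counting intervals, which are not printed, and floors (3 counts) cover counting error only. Planned mural condition contrasts were not run, for lack of cells. Alternatives without lymphatic cells and without WT 8 week MI were chosen after seeing the data. Values in every library are given for the members of each set with the highest mean CPM (up to 4) and for the largest called differences (up to 6, or 3 each way in untested pairs), and companion genes are named up to 3 per list and contrast.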

Additional observations from a re-analysis of the deposited data

Results flagged for a closer look

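The effect of MI differed between groups for 4 results by the interaction test (edgeR, adjusted p under 0.05). In fibroblast-like cells Lama2 had a difference between ages of 2.91 and Fmod a difference between genotypes of -2.53 on the log2 scale. In endothelial-like cells Dcn had a difference between ages of 5.51 and Col1a1 of 3.94, each with 1 UMI in WT 8 week MI. Dcn stayed called in each alternative that gave an adjusted p, but none of these addresses free RNA from fibroblasts. The Lama2 call was lost with no filter on low counts and without doublet removal, and the Fmod call with these, with DESeq2 and with totals that leave out the members. The Col1a1 call was lost with a lead of 2 markers, without doublet removal and with either library total (adjusted p 0.0938 to 0.359 by edgeR), DESeq2 gave it no adjusted p, and without WT P1 MI replicate 2 its value was 0.36. No technical or biological reading of these 4 values was tested.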

How the results depend on the processing

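Of the counts of called members, 91 of the alternative values stayed within 1.5 times the main count and 30 did not. In fibroblast-like cells, MI at P1 called 1 member with DESeq2, with library totals (with or without the 45 members) and without doublet removal. The genotype comparison with MI called 11 with either library total and 2 without doublet removal or without the filter on low counts. The interaction with age called 3 with DESeq2, with at least 2 markers and with totals that leave out the members, 2 with library totals, and 0 without doublet removal or without the filter. The interaction with genotype called 0 with DESeq2, with totals that leave out the members, without doublet removal and without the filter. In endothelial-like cells, MI at P1 called 0 with DESeq2, either library total, no doublet removal and no filter. The genotype comparison called 0 with DESeq2 and without doublet removal and 1 without the filter, the comparison of ages with MI 3 without doublet removal, and the interaction with age 1 with a lead of 2 markers or without doublet removal. The cause was not tested.

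Among pairs of single libraries, the members past the fold numbered 3 in fibroblast-like Mertk KO MI against sham with the cells' own CPM. In endothelial-like cells they numbered 20 between WT sham libraries without doublet removal, 8 and 2 between P1 sham libraries without doublet removal and with the cells' own CPM, and 6 in Mertk KO MI against sham with a lead of 2 markers. The endothelial ratio of Col1a2 with MI at 8 weeks reversed to 0.28 with a lead of 2 markers, and that of Col1a1 between P1 sham libraries to -0.52 with the cells' own CPM. The endothelial interstitial total of WT P1 MI was 0.598% with a lead of 2 markers, 0.666% without doublet removal, 0.627% of totals without the members and 0.603% with the cells' own CPM.

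Leaving out 1 WT P1 MI library at a time gave 43 called members between fibroblast-like and endothelial-like cells each time, 19 to 34 against mural-like cells and 20 to 27 between mural-like and endothelial-like cells. For the conditions it leaves no residual degree of freedom, so it gives values only. The WT P1 MI totals then ran from 4.73% to 5.60%, 0.735% to 0.840% and 0.461% to 0.626% in fibroblast-like cells and from 0.616% to 0.621%, 0.0821% to 0.107% and 0.509% to 0.721% in endothelial-like cells, for the interstitial, elastic fibre and basement membrane sets. No paired analysis was possible because only WT P1 MI has numbered replicates.

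Counts over all genes moved by over 1.5 times as follows. Without WT P1 MI replicate 2, fibroblast-like against mural-like cells went from 2078 to 857 and mural-like against endothelial-like cells from 3110 to 1524. In fibroblast-like cells DESeq2 and no doublet removal called 19 and 42 genes for MI at P1 (main 171), 175 and 621 for genotype with MI (main 1307), 125 and 71 for the interaction with age (main 432) and 15 and 31 for that with genotype (main 126), and DESeq2 called 650 between ages with MI (main 1535). In endothelial-like cells they called 0 and 8 (main 60), 43 and 304 (main 534), 80 and 58 (main 167), 3 and 12 (main 104, and 56 without lymphatic cells) and, between ages with MI, 250 and 247 (main 547). Depth limited most the WT 8 week MI library, with 54 endothelial-like cells.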

Other observations

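The share of a gene's UMIs held by its highest fibroblast-like cells was compared between genes. Ranking cells by their own counts puts more than an even share in the highest cells by counting alone, the more so for genes with few UMIs. With each cell thinned to 2000 UMIs, the 10% of cells with the most Eln UMIs held 48.0%, 60.4%, 60.5%, 85.3%, 83.3%, 64.4% and 73.8% of all Eln UMIs, in the library order of the report. Shallower cells were left out. For Fn1 the share was 27.6%, 26.0%, 30.8%, 58.0%, 29.8%, 31.6% and 31.4%, and for Col1a1 27.5%, 23.4%, 26.5%, 49.7%, 22.6%, 23.9% and 27.1%. For Sparc it was 18.5%, 19.7%, 19.2%, 35.1%, 21.3%, 18.1% and 18.4%, and for Dcn 18.4%, 20.8%, 19.7%, 20.1%, 32.5%, 19.7% and 21.8%. WT 8 week sham had the highest share for Eln, Fn1, Col1a1 and Sparc, and WT 8 week MI for Dcn. The mean per thinned cell in WT 8 week sham was 3.46 UMIs for Eln, 1.36 for Fn1, 7.39 for Col1a1, 15.1 for Sparc and 34.7 for Dcn. These are values per library, with no test.

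In endothelial-like cells, genes from the lists of related genes were called between Mertk KO P1 MI and WT P1 MI. Of all genes tested 4.21% were called there (2.97% higher, 1.25% lower). The inhibitor Timp1 was higher (2.79 ± 0.34, log2 ± SE, edgeR), as were the elastic fibre partner Emilin2 (4.42 ± 0.55), the integrin Itgb3 (2.74 ± 0.62) and the cross-linking enzyme Loxl1 (1.60 ± 0.50). Timp1 also rose with MI at P1 in WT (1.91 ± 0.46), where 0.473% of all genes were called. Leukocyte markers were at 861 CPM in these cells of Mertk KO P1 MI, and their part was not tested.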
